A study of Mus musculus with 4 samples.

Results

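The 10 genes described here mark the base of the intestinal crypt, where the stem cells of the epithelium divide: Lgr5, Ascl2, Axin2, Smoc2, Rnf43, Znrf3, Tnfrsf19, Lrig1, Ephb2 and Ephb3. A gene was measured where a probe set, the group of probes that reads a gene on the array, carried its symbol and no other in the platform annotation. This gave 9 of the 10 genes, each with 1 probe set, among 19938 genes in all. Ephb2 was not matched to a probe set and is not analysed here. The members were chosen by name and not from their values, although earlier results of these data were known when the list was made.

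The cells came from frozen Swiss rolls of mouse colon, from which the epithelium at the surface and in the crypts was taken separately by laser capture microdissection, a way of lifting chosen cells out of a tissue section. All mice were C57BL/6 males, 11 weeks old, and ate a high fat, low calcium diet with 40% of its energy as fat for 14 days, either as such (control) or with heme, the iron pigment of red meat, at 0.5 µmol/g. RNA was pooled over 4 control mice or 3 heme mice, and each pool was hybridised to 1 array, so that each combination of diet and compartment is 1 array. Within a diet, both compartments were taken from the same animals. The title of the study concerns feedback inhibitors of proliferation and faster turnover of the epithelium, and the stem cell genes bear on the crypt end of that axis.

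The colonic epithelium is renewed from stem cells at the crypt base that are kept in that state by Wnt signals. Wnt proteins bind Frizzled receptors and stabilise beta-catenin, which acts with TCF factors on target genes such as Axin2, Ascl2 and Lgr5. R-spondins, bound by LGR4, LGR5 and LGR6, raise the response by removing the ubiquitin ligases RNF43 and ZNRF3, which clear Frizzled from the membrane and are themselves Wnt targets. As cells move up towards the surface they lose these transcripts and exchange EphB receptors for ephrin-B ligands.

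Values are log2 expression values as deposited. A difference is a difference of log2 values, so that 1 is a 2-fold difference, and no p-value or standard deviation can be given with 1 array a group. The words higher and lower in counts mean a difference of at least 2-fold in which at least 1 of the compared arrays reached 5.75, the median of all gene values, called the floor here. The pools fit their labels by marker genes: 10 of 10 surface colonocyte markers were lower in crypt than in surface cells on each diet, and 18 of 19 mitosis genes on control and 19 of 19 on heme were higher. These markers were chosen with earlier results of these data known, which limits this check. None of the differences has a replicate check, and the spread between mice is unknown. In pooled tissue RNA, fewer cells of a type and less RNA per cell cannot be told apart.

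RefSeq promoter windows (GRCm38.p6) were matched for 7 of the 10 genes, Ephb2 among them, in 9 windows. The 250 bases before the start were searched on both strands for the TCF/LEF words CTTTGAA or CTTTGAT or CTTTGTA or CTTTGTT and for the E-box CAGCTG, the kind of site bound by basic helix-loop-helix factors such as ASCL2. The windows below are those of Ascl2 (chr7:142969265-142969514, minus strand), Axin2 (chr11:108920099-108920348, plus strand) and the first window of Rnf43 (chr11:87662837-87663086, plus strand), which are Wnt targets shown because Ascl2 and Rnf43 had lower heme values in crypt cells (-0.79 and -0.86) than Axin2 (-0.29), and the window of Tnfrsf19 (chr14:61037988-61038237, minus strand) that holds the 1 TCF/LEF match. They are written on the strand of the gene, and capitals mark the match.
Ascl2: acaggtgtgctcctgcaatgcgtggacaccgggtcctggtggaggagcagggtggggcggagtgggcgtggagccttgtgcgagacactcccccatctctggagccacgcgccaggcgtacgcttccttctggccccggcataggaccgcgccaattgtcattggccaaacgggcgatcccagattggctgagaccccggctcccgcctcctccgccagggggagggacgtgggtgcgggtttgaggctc
Axin2: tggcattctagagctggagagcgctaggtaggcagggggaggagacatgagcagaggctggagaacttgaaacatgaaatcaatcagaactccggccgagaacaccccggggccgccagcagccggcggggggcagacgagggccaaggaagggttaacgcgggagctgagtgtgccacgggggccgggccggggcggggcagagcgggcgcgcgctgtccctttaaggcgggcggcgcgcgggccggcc
Rnf43: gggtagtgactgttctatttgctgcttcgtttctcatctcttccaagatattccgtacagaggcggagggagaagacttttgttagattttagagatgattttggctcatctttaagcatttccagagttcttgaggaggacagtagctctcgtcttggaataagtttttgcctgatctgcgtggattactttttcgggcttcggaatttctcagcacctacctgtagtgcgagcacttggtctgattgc
Tnfrsf19: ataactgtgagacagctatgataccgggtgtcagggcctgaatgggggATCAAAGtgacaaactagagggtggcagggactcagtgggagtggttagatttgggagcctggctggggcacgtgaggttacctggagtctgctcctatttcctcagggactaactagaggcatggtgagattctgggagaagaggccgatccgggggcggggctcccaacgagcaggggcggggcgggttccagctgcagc

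A TCF/LEF word was found in 1 of the 9 member windows and in 14.8% of all 32851 windows of this length. In Tnfrsf19 it was CTTTGAT on the strand opposite to the gene, 202 to 196 bases before the start. The E-box was found in 2 of the 9 member windows, those of Tnfrsf19 and Ephb3, and in 13.0% of all windows. In the other windows these letters were not found, which says nothing on sites farther away. The member windows were rich in G and C, with a median of 65.6% against 52.4% over all windows, and ranged from 44.4% for Rnf43 to 71.6% for Lrig1.

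On the control diet all 9 measured members had higher log2 values in crypt than in surface cells, as did 43.9% of all 19938 genes. The median difference of the members was 2.20 against -0.06 over all genes. Tnfrsf19 stayed below the floor on the 4 arrays. The other 8 were at least 2-fold higher in crypt cells, where 13.5% of the 10864 genes at the floor were, and none was lower, where 12.0% were. For 5 of these 8 the surface value lay below the floor, so that they entered the count through their crypt value alone. Alternative scalings shift each array until a reference set has the same median on all 4 (ribosomal protein or pan-epithelial genes, called centring here) or align whole arrays to each other (cyclic loess). Ribosomal protein centring took the median over all genes at the floor to -1.19 and that of the members to 0.96, with 4 members at least 2-fold higher and Tnfrsf19 at -0.93.

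Lgr5, the R-spondin receptor that marks crypt base stem cells, had log2 values of 4.76 in control surface, 7.75 in control crypt, 5.55 in heme surface and 6.69 in heme crypt cells (probe set 10372503). Both crypt values lay above both surface values, and the heme values lay between the control values. The crypt pool exceeded the surface pool by 2.99 (7.96-fold) on the control diet, more than 99.8% of genes at the floor, and by 1.13 (2.20-fold) on heme. Because the surface values were below the floor, these sizes are uncertain: with log2(2^value + 32), which damps differences between low values, they were 2.07 and 0.78, and the heme value was -0.0194 after ribosomal protein centring.

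Rnf43, the ubiquitin ligase that removes Frizzled receptors, stood at 7.16 in control surface, 8.47 in control crypt, 7.18 in heme surface and 7.62 in heme crypt cells (probe set 10380116). The surface arrays had almost the same value, and the control crypt array stood highest. The difference between crypt and surface was 1.31 (2.49-fold) on the control diet and 0.43 (1.35-fold) on heme, and these became 0.0748 and -0.72 after ribosomal protein centring, below the size rule.

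Its paralogue Znrf3, the other ligase of this pair, read 5.33 in control surface, 6.98 in control crypt, 5.23 in heme surface and 6.97 in heme crypt cells (probe set 10383982). The arrays of a compartment were alike on the diets, and the compartments were apart. Crypt exceeded surface by 1.65 (3.14-fold) on the control diet and by 1.74 (3.34-fold) on heme.

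Axin2, a scaffold of the complex that degrades beta-catenin and a widely used Wnt target, was measured at 5.63 in control surface, 8.09 in control crypt, 5.76 in heme surface and 7.80 in heme crypt cells (probe set 10382228). The crypt pools were well above the surface pools on each diet, by 2.46 (5.49-fold) on control and 2.04 (4.12-fold) on heme. Of the genes at the floor, 99.3% had a smaller difference on the control diet. After ribosomal protein centring the Axin2 differences were 1.22 on control and 0.89 on heme, the latter below the size rule.

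Ascl2, the transcription factor that drives the stem cell state together with beta-catenin and TCF, had values of 4.13 (surface) and 6.43 (crypt) on the control diet and 4.38 (surface) and 5.64 (crypt) on heme (probe set 10569385). Only the control crypt value reached the floor. The crypt to surface difference was 2.31 (4.94-fold) on control and 1.26 (2.40-fold) on heme, and with log2(2^value + 32) 1.26 and 0.63. On heme it did not count as higher, since both arrays were below the floor. It did count with no floor and with a floor of 4.57, the 95th percentile of olfactory receptor genes.

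Smoc2, a secreted matrix protein of crypt base cells that fibroblasts also make, read 5.58 in control surface, 7.78 in control crypt, 5.75 in heme surface and 7.81 in heme crypt cells (probe set 10441902). The heme surface value lay at the floor within rounding and just below it. The crypt pools were higher by 2.20 (4.60-fold) on control and 2.06 (4.18-fold) on heme. After ribosomal protein centring these differences were 0.96 and 0.91, just below the size rule. Of 14 smooth muscle and fibroblast markers, all at or above the floor in at least 1 pool, the mean log2 level was 7.88 in control surface, 8.36 in control crypt, 7.52 in heme surface and 7.59 in heme crypt cells, and their part in the Smoc2 difference was not tested.

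Tnfrsf19, the TNF receptor family member TROY and a Wnt target in stem cells, lay between 4.89 and 5.46 on the 4 arrays (probe set 10420596). It was below the floor throughout, although above 4.57, the 95th percentile of olfactory receptor genes. Its differences of 0.31 and 0.20 between crypt and surface give no clear gradient, and became -0.93 and -0.95 after ribosomal protein centring.

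Lrig1, a membrane protein that restrains ErbB receptors, had log2 values of 6.85 in control surface, 9.69 in control crypt, 5.97 in heme surface and 9.37 in heme crypt cells (probe set 10546510). It was above the floor on every array. The crypt to surface difference was 2.84 (7.15-fold) on control and 3.41 (10.6-fold) on heme, the largest of the members on heme, and 99.8% of the genes at the floor had a smaller one there. The receptors that LRIG1 acts on stood the other way on the control diet: Erbb2 differed by -1.60 and Erbb3 by -1.55 between crypt and surface, and Egfr by -0.12 (0.85 with pan-epithelial centring). With pan-epithelial centring the median of these 3 genes was -0.57, and none was lower by size.

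Ephb3, the receptor for B-type ephrins that keeps cells in the lower crypt, read 6.92 in control surface, 8.74 in control crypt, 6.48 in heme surface and 8.32 in heme crypt cells (probe set 10434559). Both compartments were lower on heme, and the distance between them was 1.82 (3.54-fold) on control and 1.84 (3.58-fold) on heme. That distance was 0.58 and 0.69 after ribosomal protein centring, below the size rule. Of the Eph and ephrin genes at the floor, the ligand genes Efnb1, Efnb2 and Efna1 and the receptor genes Epha1 and Epha2 were lower in crypt cells on control by size, and the receptor genes Epha4 and Ephb4 were higher. Efnb1, Epha1 and Epha4 were named after their values were seen, since they complete these counts. With pan-epithelial centring 2 genes of this list were lower on control by size and 3 were higher. Efnb2, a B-type ligand, differed by -3.19 on control and -2.77 on heme between crypt and surface, and the A-type ligand Efna1 by -2.59 and -2.51. Ephb4, a close relative, lay on the crypt side like Ephb3, with 2.37 and 2.84.

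**Figure D1:**
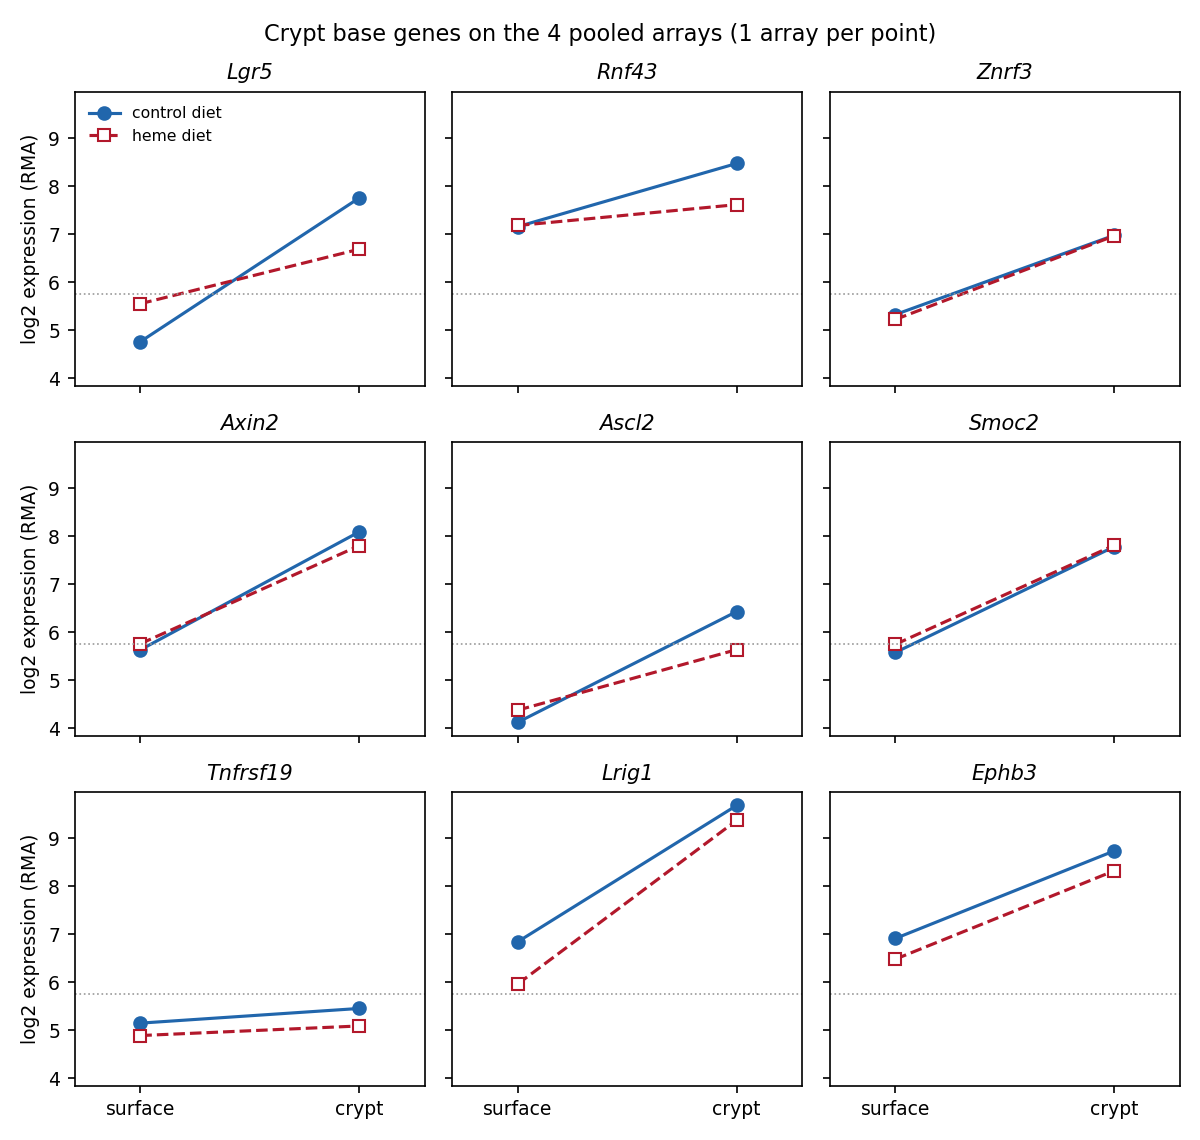
Log2 expression of the 9 measured genes in surface and crypt cells, with 1 array per point, the control diet as filled circles and solid lines, the heme diet as open squares and dashed lines, and the floor of 5.75 as a dotted line. Every line slopes up towards the crypt (after ribosomal protein centring Tnfrsf19 slopes down on both diets, and Rnf43 and Lgr5 on heme), and the heme line is flatter for Lgr5, Rnf43 and Ascl2.

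On the heme diet the members again lay on the crypt side, with a median of 1.74 over the 9 measured genes against -0.0045 over all genes. Of all genes 49.3% lay on that side. At least 2-fold higher were Lgr5, Axin2, Smoc2, Znrf3, Lrig1 and Ephb3, 6 members of 7 at the floor, where 16.5% of 10698 genes were. None was lower, where 15.3% were. For Lgr5, Smoc2 and Znrf3 the surface value lay below the floor, so that they entered the count through their crypt value alone. The median fell to 0.59 and the count to 1 (Lrig1) after ribosomal protein centring, which also turned Rnf43, Tnfrsf19 and Lgr5 below 0. The gap between crypt and surface was narrower on heme for 6 of the 9 genes and wider for Lrig1, Znrf3 and Ephb3. Over all genes, on whichever side they lay, the signed crypt minus surface value was larger on heme for 55.4%. Tnfrsf19, among the 6, was below the floor throughout, and Ephb3 (0.02) turned to -0.05 with log2(2^value + 32).

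**Figure D2:**
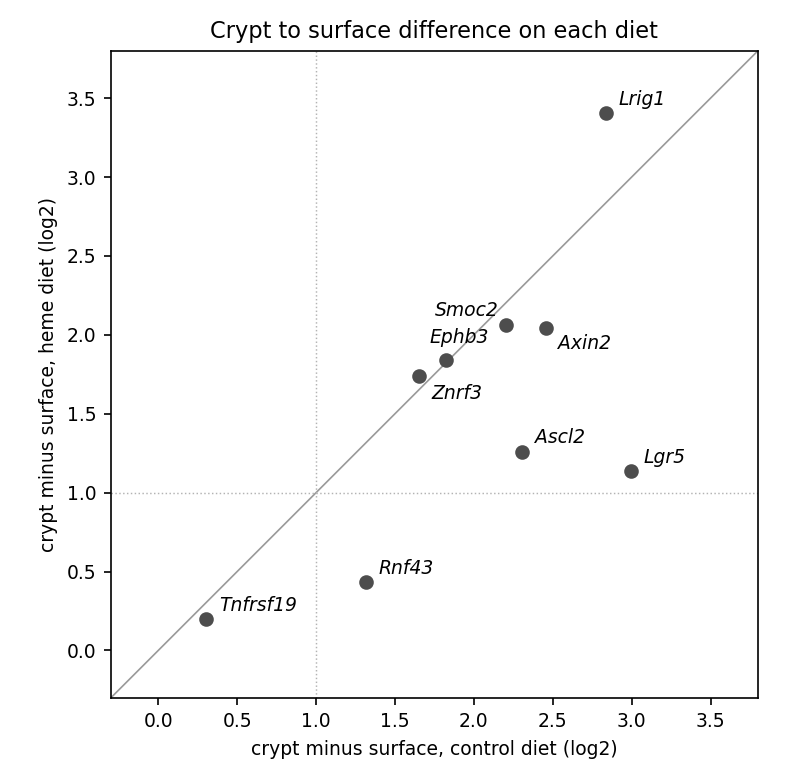
Crypt minus surface difference (log2) of each of the 9 genes on the control diet (horizontal) and on the heme diet (vertical), with the diagonal of equal differences as a line and dotted lines at 1, a 2-fold difference. Lgr5, Ascl2 and Rnf43 lie farthest below the diagonal, Lrig1 lies above it, and the remaining genes lie near it (ribosomal protein centring lowers the values by more than 1 on both axes and takes Lgr5, Rnf43 and Tnfrsf19 below 0 on heme).

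Heme against control in crypt cells is the diet contrast in the compartment that includes the stem cells, and the labels do not single out the crypt base. It uses the same crypt arrays as the comparisons above, so its values do not stand apart from them. The median difference of the 9 measured members was -0.36 against 0.01 over all genes. Of the 9, 8 were below 0, while 51.7% of all genes were above 0. The 8 included Znrf3 (-0.01), which changes sign with some scalings, and Tnfrsf19, which was below the floor. By size, Lgr5 was lower, and no member was higher, among 8 members at the floor. Of 10491 genes at the floor 1.19% were lower and 1.78% were higher. The members thus ranged from -1.07 to 0.03.

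The value of Lgr5 was -1.07 (2.09-fold lower, from 7.75 to 6.69), and 0.915% of the genes at the floor had a lower one. It lay at the edge of the size rule: it was -0.998 with cyclic loess, -0.93 after ribosomal protein centring and -0.88 with log2(2^value + 32), none of which reached 2-fold. Rnf43 differed by -0.86 (1.81-fold, 1.92% of genes lower) and Ascl2 by -0.79 (1.73-fold, 2.53% of genes lower). These 3 genes had the lowest values of the list, and by a 1.5-fold rule they were the members counted as lower, where 5.6% of all genes at the floor were. Ascl2 entered that count through its control crypt value alone, since its heme crypt value (5.64) was below the floor. With log2(2^value + 32) its difference was -0.53, short of 1.5-fold.

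The remaining members were nearer to 0. Ephb3 differed by -0.41, Lrig1 by -0.31 and Axin2 by -0.29. Smoc2 (0.03) and Znrf3 (-0.01) had nearly the same value on both diets, and the sign for Znrf3 turned with ribosomal protein centring, pan-epithelial centring and cyclic loess. Tnfrsf19, below the floor, differed by -0.36. The ligases that act on the same receptors, Rnf43 and Znrf3, thus had unlike values (-0.86 and -0.01), a contrast between genes that was not tested.

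**Figure D3:**
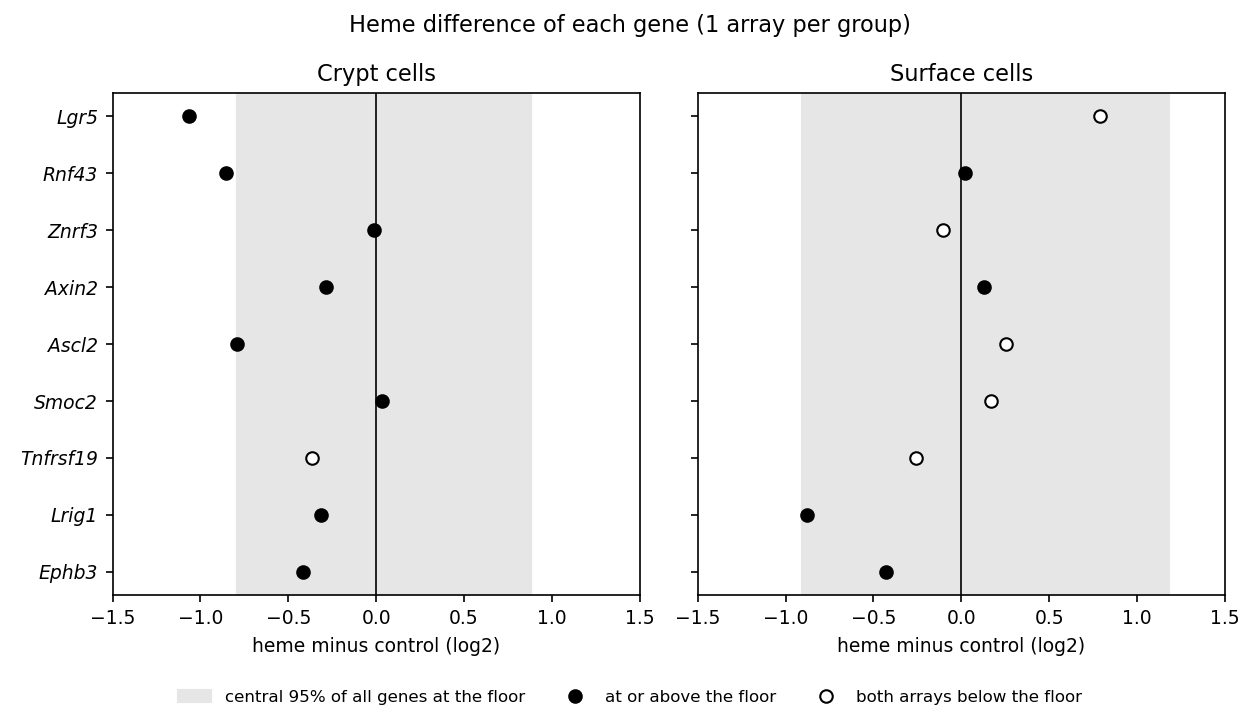
Heme minus control difference (log2) of each of the 9 genes in crypt cells (left) and surface cells (right), 1 array per diet. Open circles are genes below the floor on both arrays, and the grey band holds the central 95% of all genes at the floor. In crypt cells Lgr5 (-1.07) and Rnf43 (-0.86) lie left of the band, which starts at -0.79, with Ascl2 at its edge, and in surface cells every gene lies inside it (Znrf3, near 0, changes sign with some scalings).

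Other transcripts moved in the same crypt pools. Of 19 measured mitosis genes, 14 were at least 2-fold higher in the heme crypt pool and the median was 1.39. Among 10 surface colonocyte markers, 6 passed the size rule upwards (median 1.13), and their mean log2 level went from 7.43 to 8.51. Markers of other cells stood lower: the median was -0.71 for 14 smooth muscle and fibroblast markers (3 lower), -0.63 for 8 immune markers at the floor (2 lower) and -0.68 for 7 endothelial markers at the floor (1 lower). Epithelial lineages also had medians below 0, with none past 2-fold: -0.32 for 4 deep crypt secretory markers, -0.53 for 4 goblet cell markers, -0.70 for 2 enteroendocrine markers and -0.61 for 3 tuft cell markers. The mean level in the crypt pools was 8.36 and 7.59 for muscle and fibroblast, 6.82 and 6.40 for all 11 measured immune markers, with Cd79a and Itgam below the floor on every array, and 6.75 and 6.08 for endothelial markers. All 5 measured glial and neuronal markers were below the floor on every array. For the 10 pan-epithelial genes the median was -0.0031. The part of these shifts in the members' values was not tested.

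**Figure D4:**
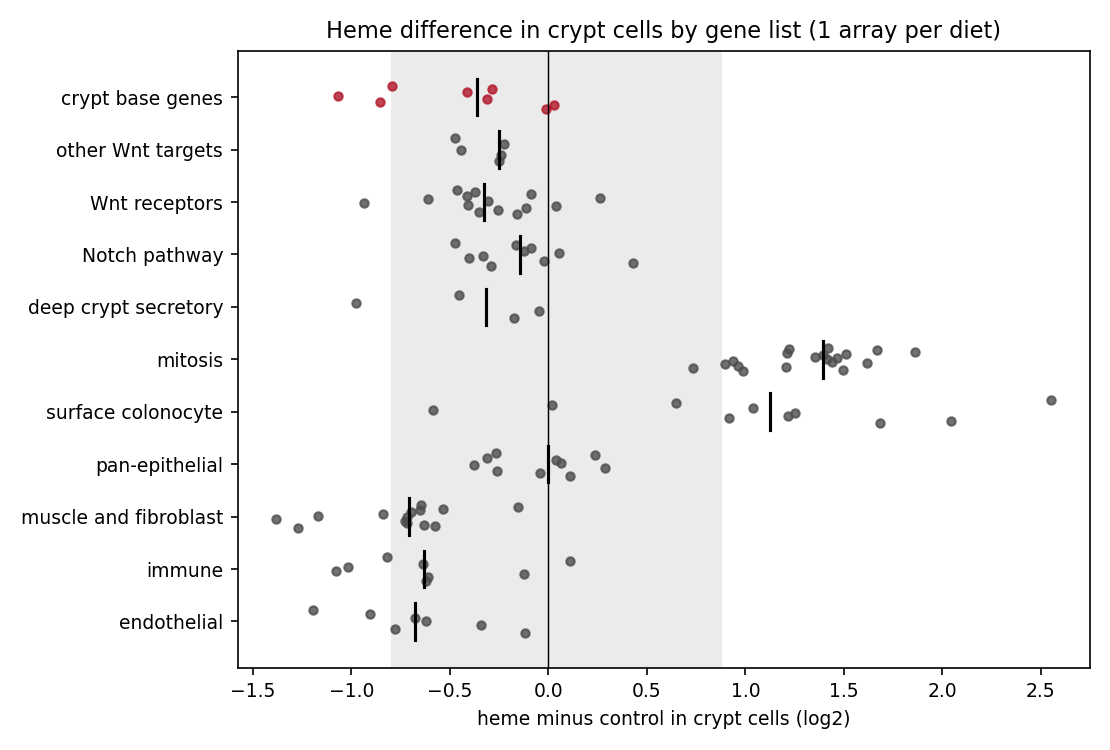
Heme minus control difference in crypt cells (log2) for the genes of 11 lists that reached the floor, 1 point per gene, with the list median as a black bar and the central 95% of all genes as a grey band. The crypt base genes have a median of -0.36 over 8 genes, the mitosis genes lie at 1.39 and the muscle, immune and endothelial markers at -0.71, -0.63 and -0.68 (of the medians shown, that of the pan-epithelial genes, near 0, changes sign with some scalings).

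In surface cells the heme differences of the 9 members ranged from -0.88 for Lrig1 to 0.79 for Lgr5. No member was higher or lower by size, with 4 members at the floor, where 3.62% of 10282 genes were higher and 2.01% lower. The median over all 9 was 0.02 against -0.04 over all genes, with 5 above 0, as were 43.5% of all genes. Lrig1 had the lowest value, -0.88 (from 6.85 to 5.97), and 2.70% of genes at the floor were lower. By the 1.5-fold rule it was the member counted as lower, where 7.92% of genes were. Ephb3 differed by -0.43, Axin2 by 0.13 and Rnf43 by 0.02.

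Lgr5 differed by 0.79 in surface cells, from 4.76 to 5.55, with both values below the floor (0.42 with log2(2^value + 32)). Ascl2 (0.25), Smoc2 (0.17), Znrf3 (-0.10, and 0.0066 with cyclic loess) and Tnfrsf19 (-0.26) were also below it on both arrays. Of the 4 markers of deep crypt secretory cells, the goblet-like cells that sit between colonic stem cells, Spink4 (1.56) and Reg4 (1.23) were higher in the heme surface pool, Kit (-1.03) was lower and Agr2 differed by 0.08. The mean log2 level of these 4 was 7.88 in control and 8.34 in heme surface cells, and its part in the Lgr5 value was not tested. Kit missed the size rule with log2(2^value + 32) and with both centrings, and Reg4 with log2(2^value + 32).

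The heme difference in crypt cells minus that in surface cells was -1.86 for Lgr5 and -1.05 for Ascl2, the 2 members lower by size among 8 at the floor, where 3.29% of 11147 genes were lower and 2.17% higher. Both surface values of Lgr5 were below the floor, and its value was -1.29 with log2(2^value + 32). Only the control crypt array of Ascl2 reached the floor, and the Ascl2 value was -0.63 with log2(2^value + 32) and -0.96 after ribosomal protein centring. By the 1.5-fold rule Rnf43 joined them at -0.88, where 10.1% of genes were lower. Axin2 stood at -0.42, Smoc2 at -0.14, Ephb3 at 0.02 (-0.05 with log2(2^value + 32)), Znrf3 at 0.09 and Lrig1 at 0.57. The median over the 9 measured genes was -0.14 against 0.05 over all genes.

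The rest of the Wnt pathway was read from lists of its parts. No R-spondin gene reached the floor on any array. Of 12 Wnt ligand genes 6 reached it. Wnt2b, made by stromal cells, read 5.92 in control surface, 7.88 in control crypt, 5.71 in heme surface and 6.82 in heme crypt cells. It was on the crypt side on both diets (1.96 and 1.11, the latter -0.0436 after ribosomal protein centring), its heme crypt value differed from control by -1.06 (-0.89 to -0.9991 under the alternatives other than pan-epithelial centring, short of 2-fold), and its ligand relative Wnt5a lay on the surface side (-1.53 and -1.83). With pan-epithelial centring no ligand gene was lower in crypt cells by size on either diet. Wnt10a (-0.58 between crypt and surface on control) and Wnt4 (-0.57) differed less than Wnt5a, and both were above 0 with pan-epithelial centring (0.40 and 0.41).

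Among 17 receptor and co-receptor genes, 14 at the floor, Fzd7 (1.59), Fzd9 (1.29) and the co-receptor gene Lrp5 (1.06, and -0.18 after ribosomal protein centring) were on the crypt side on control by size and Fzd5 (-1.51) on the surface side, with a list median of 0.47 that became -0.77 after ribosomal protein centring. Lrp5 was named after its value was seen, since it completes the count. With pan-epithelial centring no receptor gene was lower in crypt cells on control by size. Fzd6 differed by 0.87 on control (-0.37 after ribosomal protein centring) and 1.35 on heme. No receptor gene passed 2-fold between the diets in crypt cells (median -0.33). Fzd9 came nearest, from 6.75 to 5.82 (-0.94). Fzd5 was lower in heme surface cells, at 7.73 against 8.83 (-1.10, and -0.999 with log2(2^value + 32)). Lgr4, the more widely expressed relative of Lgr5, read 10.7 in surface and 10.01 in crypt cells on control and 10.1 and 9.60 on heme, and so did not share the crypt side of Lgr5 (-0.73 on control and -0.48 on heme, although 0.25 and 0.49 with pan-epithelial centring).

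Of 19 measured genes that carry the signal inside the cell, none was higher or lower by diet in either compartment, with medians of -0.07 in crypt and -0.19 in surface cells (0.06 for crypt after ribosomal protein centring). Along the crypt axis the TCF factor gene Tcf7l2 was lower in crypt cells, by -2.28 on control and -1.88 on heme. Lef1 was lower on heme (-1.26), and on control differed by -1.05 with both arrays below the floor. With pan-epithelial centring neither Tcf7l2 nor Lef1 was lower by size on heme. Ctnnb1, encoding beta-catenin, differed by -0.94 and -0.99, and Bcl9, a cofactor of beta-catenin, by 0.65 and 0.94, with Ctnnb1 at 0.0398 on control under pan-epithelial centring and Bcl9 at -0.59 and -0.22 under ribosomal protein centring. Of 12 genes for secreted or membrane Wnt inhibitors, 4 reached the floor. Sfrp1 was higher in crypt cells on both diets (1.59 and 1.41) and differed by -0.86 between the diets in crypt cells, while Dkk3, Apcdd1 and Kremen1 differed by less than 2-fold in every comparison. After ribosomal protein centring none of the 4 was higher in crypt cells by size on either diet, and 3 were lower on each. With log2(2^value + 32) none was higher on heme.

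Other Wnt targets kept the crypt side on both diets. Of 10, the 5 at the floor, Myc, Ccnd1, Cd44, Sox9 and Cdca7, were all at least 2-fold higher in crypt cells, with medians of 1.90 on control and 2.39 on heme (0.66 and 1.24 after ribosomal protein centring, where Cd44 on control was -0.13). Cdca7 differed by 3.18 and 3.09, the growth regulator gene Myc by 2.76 and 3.26, Sox9 by 1.76 and 2.39 and the cyclin gene Ccnd1 by 1.90 and 1.97. None passed 2-fold between the diets. The heme differences of the 5 lay between -0.48 and -0.23 in crypt cells and between -0.88 and -0.32 in surface cells.

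Further genes linked to intestinal stem cells were mixed. Of 18 measured, 11 at the floor, Slc12a2 (2.85 on control and 3.06 on heme), Cttnbp2 (2.31 and 2.44), Cdk6, Hopx and Rgmb were higher in crypt cells on both diets, and Prom1 was lower (-2.16 and -2.53). The list median of 0.69 on control became -0.55 after ribosomal protein centring. The cell cycle kinase gene Cdk6 was lower on heme in crypt cells, at 8.78 against 9.78 (-1.003), and differed by -0.99 in surface cells. The crypt value was at the edge of the size rule and missed it under every other scaling (-0.87 to -0.99). Hopx, a marker of slowly dividing reserve cells, differed by 0.35 in crypt cells. Phlda1 was higher in heme surface cells, at 9.97 against 7.58 (2.39), and differed by 0.13 in crypt cells. Cdk6, Hopx, Rgmb and Cd44 were named after their values were seen, since they complete the counts.

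In the Notch pathway, which keeps stem cells from the secretory fate, Lfng (1.77), Notch1 (1.68) and Notch2 (1.12, and -0.12 after ribosomal protein centring) were higher in crypt cells on control, of 10 genes at the floor (list median 0.86, and -0.38 after ribosomal protein centring). None passed 2-fold by diet, and the medians were -0.14 in crypt and -0.11 in surface cells. Nrarp, a Notch target, differed by 0.43 in crypt cells. Among Eph and ephrin genes, Epha2 was higher in heme surface cells, at 9.60 against 8.05 (1.55). Among the close relatives of the members, Smoc1 was higher in heme surface cells, at 6.69 against 5.26, which is under the floor (1.43, or 0.94 when computed with log2(2^value + 32)), and Lrig3 differed by 1.08 on control (-0.16 after ribosomal protein centring) and 1.599 on heme between crypt and surface.

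The genes whose 4 values ran closest to the mean profile of the 9 members were Agr2, Pecr, Greb1, Maged1, Lpcat2, Actn1, Tmem131l and Plcb4, ranked among 10693 genes by the Euclidean distance between centred log2 values over the 4 arrays. The distances ran from 0.08 for Agr2 to 0.18 for Plcb4. Agr2, a protein disulfide isomerase of secretory cells, read 9.89 in control surface, 11.9 in control crypt, 9.97 in heme surface and 11.5 in heme crypt cells. Of the members themselves, each set against the mean of the other 8, Ephb3 (0.32), Ascl2 (0.35) and Znrf3 (0.37) ran closest, and Tnfrsf19 (1.73), Lrig1 (1.66), Rnf43 (1.07) and Lgr5 (0.88) ran farthest apart from the rest. The ranking compares the pattern over 4 arrays, with each gene's own level removed.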

How the data were processed

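Each of the 4 groups was 1 array of RNA pooled over mice. The authors deposited log2 values for 35556 probe sets. RMA is named in the submitters' processing notes, while its version and whether the arrays were normalized as 1 set is not given in the sources used here. Probe sets with 1 gene symbol in the platform annotation (21789) were averaged per gene, with symbols updated through gene identifiers, which matched for 21698. Comparisons were differences of log2 values with a 2-fold size rule and a floor of 5.75 (the median over every gene and array). No test was possible. The members, 11 pathway lists with 127 genes and 11 lists of cell type and mitosis markers were chosen with earlier results of these data known. Named genes are all members, up to 4 genes of each pathway list with the largest differences, and the 8 nearest profiles; others are said to be so. Promoter windows came from RefSeq (GRCm38.p6), 250 bases before each start. The size rule was checked on simulated data, with planted differences larger than 2-fold in genes well above the floor. That check did not cover differences close to 2-fold or genes near the floor. Alternatives were log2(2^value + 32), centring on 59 ribosomal protein or 10 pan-epithelial genes, cyclic loess (limma 3.58.1, R 4.3.3), the highest probe set, no floor, a floor of 4.57 (95th percentile of 1027 olfactory receptor genes) and a 1.5-fold rule. Calculations used Python 3.11.15, numpy 2.4.6, pandas 2.3.3 and matplotlib 3.10.9. With 4 arrays, their number limits the precision.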

Additional observations from a re-analysis of the deposited data

Results flagged for a closer look

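For Lgr5 and Ascl2 the heme difference had opposite signs in the compartments, and the gap between the differences passed 2-fold. Lgr5 stood at -1.07 in crypt and 0.79 in surface cells, a gap of -1.86. Ascl2 stood at -0.79 and 0.25, a gap of -1.05. The surface values of both genes were below the floor on both diets, and so was the heme crypt value of Ascl2 (5.64). The Ascl2 gap fell short of 2-fold after ribosomal protein centring (-0.96) and with the scaling that damps differences between low values (-0.63). The Lgr5 gap stayed past 2-fold with both scalings (-1.77 and -1.29). Of 11147 genes at the floor, 3.29% had a gap of at least 2-fold in this direction. The share that also had opposite signs was not counted. With 1 array a group, the difference between the compartments was not tested.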

How the results depend on the processing

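Each group has 1 array, so no array could be left out, and values under the floor have little depth of signal above background. No paired analysis was possible because the groups hold 1 array each. Under log2(2^value + 32) the crypt to surface median on control was 1.59, the count of members lower in heme crypt cells was 0 and the count lower in the difference between compartments was 1. Centring on ribosomal protein genes gave crypt to surface medians of 0.96 on control and 0.59 on heme, counts of 4 and 1 higher, 0 members lower in heme crypt cells and 1 lower in the difference between compartments; Lgr5 on heme turned from 1.13 to -0.0194. That scaling moved the median of all genes at the floor to -1.19 and -1.11 between crypt and surface, and left 1.86% of calls on control on the crypt side against 52.9%. Pan-epithelial centring gave medians of 3.18 and 2.72 and moved all genes to 1.03 and 1.02, with 93.0% of calls on the crypt side on control. With cyclic loess 0 members were lower in heme crypt cells. With a 1.5-fold rule 3 members were lower in heme crypt cells (Lgr5, Rnf43 and Ascl2, where 5.6% of genes were) and 1 in heme surface cells (Lrig1, where 7.92% were), and in the difference between compartments Rnf43 joined Lgr5 and Ascl2 (3 members). Of these members, Ascl2 reached the floor on the control crypt array alone. In the 106 other recomputed medians and counts the value moved by at most 1.5-fold. The causes were not tested.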
